A study of Homo sapiens with 8 samples.

Results

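The D cyclins CCND1, CCND2 and CCND3, the E cyclins CCNE1 and CCNE2, their kinases CDK4, CDK6 and CDK2, and the phosphatase gene CDC25A were read out in HT29 cells. These 9 genes were taken by name from the 38148 genes of the deposited table. The rule uses no measured value, but the members were chosen with earlier results of these data known. The HT29 line comes from a human colorectal cancer and carries the BRAF V600E mutation, and selumetinib is an inhibitor of MEK1 and MEK2, the kinases that activate ERK1/2. Cultures without drug and cultures that received selumetinib (1 μM, 24 h) were fixed with glyoxal and stained for the intracellular protein cyclin B1 (CCNB1). Flow sorting then gave a CCNB1-negative and a CCNB1-positive fraction of each, and poly(A) mRNA-seq gave 2 libraries for each of these 4 groups. All came from 1 cell line, the control vehicle for these libraries was not given in the sources used here, and whether the 2 libraries of a group came from separate cultures was not stated for HT29. If they did not, p-values measure technical spread only.

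The sample labels contradict each other. In all 8 samples the title gives the other treatment and the other fraction than the description does. The groups used here follow the descriptions, which match the column names of the table. Under the titles, each selumetinib response given here for one fraction would belong to the other with its sign changed, each difference between fractions would move to the other treatment with its sign changed, and the difference of the responses between fractions would be the same. By the descriptions, CCNB1 mRNA was higher in the CCNB1-positive than in the CCNB1-negative libraries of both treatments. Its log2 values were 13.92 against 11.83 without and 12.65 against 7.57 with selumetinib (means of 2). Of 14 ERK pathway output genes, which include the member CCND1, 12 were lower in treated cells of each fraction (adjusted p under 0.05, limma), ETV4, ETV5 and DUSP6 among them. Over all genes tested, 35.8% were lower and 38.2% higher in CCNB1-negative cells, and 27.3% and 38.0% in CCNB1-positive cells. In CCNB1-negative cells 2 of the 14 were higher and in CCNB1-positive cells 1, EPHA4 being among them in both. By the titles, each of these directions would be the reverse. Every direction below rests on the descriptions.

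D cyclins bind CDK4 and CDK6, and E cyclins bind CDK2. In textbook accounts, cyclin D complexes begin and cyclin E complexes extend the phosphorylation of the retinoblastoma protein RB, which releases E2F transcription factors and allows entry into S phase. CDC25A removes inhibitory phosphates from CDKs, CCND1 is a well-known transcriptional output of ERK signalling, and CCNE1, CCNE2 and CDC25A are well-known E2F targets. CCNB1 protein accumulates through S and G2 phase, so that a CCNB1-negative gate is enriched for cells early in the cycle and a CCNB1-positive gate for cells late in it.

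The promoters are shown for 4 genes with different patterns in the values that follow: CDC25A and CCNE1, whose responses differed between fractions, CDK4, which fell in both, and CDK6, which passed the test in neither. Each line gives the 250 bases before the RefSeq start on the gene's own strand, 5′ to 3′ (GRCh38.p14: CDC25A, chr3:48188418-48188667, minus strand, CCNE1, chr19:29811741-29811990, plus strand, CDK4, chr12:57752311-57752560, minus strand, CDK6, chr7:92836574-92836823, minus strand). Capitals mark a match to an E2F motif.
CDC25A: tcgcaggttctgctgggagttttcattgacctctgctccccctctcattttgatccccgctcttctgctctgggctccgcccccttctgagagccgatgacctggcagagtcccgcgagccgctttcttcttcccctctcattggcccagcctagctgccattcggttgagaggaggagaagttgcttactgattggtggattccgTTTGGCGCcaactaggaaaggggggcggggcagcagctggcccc
CCNE1: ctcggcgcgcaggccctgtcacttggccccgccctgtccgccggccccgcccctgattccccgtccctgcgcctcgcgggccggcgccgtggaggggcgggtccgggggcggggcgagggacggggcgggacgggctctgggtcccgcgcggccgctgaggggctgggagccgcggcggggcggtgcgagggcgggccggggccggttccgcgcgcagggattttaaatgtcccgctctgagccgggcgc
CDK4: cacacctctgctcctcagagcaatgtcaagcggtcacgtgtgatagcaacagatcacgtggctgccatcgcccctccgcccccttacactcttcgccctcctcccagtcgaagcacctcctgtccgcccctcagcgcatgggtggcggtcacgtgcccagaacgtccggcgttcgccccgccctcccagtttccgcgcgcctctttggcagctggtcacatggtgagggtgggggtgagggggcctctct
CDK6: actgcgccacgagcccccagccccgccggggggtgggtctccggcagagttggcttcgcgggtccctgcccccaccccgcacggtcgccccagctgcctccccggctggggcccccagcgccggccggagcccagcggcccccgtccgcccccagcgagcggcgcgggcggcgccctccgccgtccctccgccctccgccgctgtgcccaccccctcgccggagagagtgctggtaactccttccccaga

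Both strands of these windows were searched for E2F (TTTCCCGC, TTTGGCGC, TTTCGCGC or TTTGCCGC), AP-1 (TGACTCA or TGAGTCA), CRE (TGACGTCA) and ETS (CCGGAAGT) motifs, none of which contains another. The single match was TTTGGCGC in the CDC25A promoter, with its first base at -44 from the start. The E2F letters occurred in 2.79% of 35116 RefSeq promoter windows of this length, the AP-1 letters in 4.20%, the CRE letters in 1.65% and the ETS letters in 3.42%. CCND3 had 3 windows and CDK6 a second one in the same collection, also without a match. CCND1, CCND2, CCNE2 and CDK2 had no entry.

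The libraries held 12696860 to 23916160 reads on genes. Values are the deposited log2 values, that is log2 of a gene's reads scaled to the largest library, and a difference of 1 on this scale is a doubling. Mitochondrial transcripts took 4.44 to 7.80% of the reads in untreated and 11.9 to 14.8% in treated libraries, and MALAT1, a nuclear noncoding RNA, took 0.303 to 0.386% and 2.01 to 4.42%. Values scaled to the total carry these shares, and scaling without these genes is given beside the calls it changed. All 10 colorectal epithelial markers had reads in every group, with a sum of 6795 to 12960 reads for every 1000000 on genes (RPM), against at most 5.71 RPM for any of the leukocyte, fibroblast and endothelial lists. CCNB1 itself, the sorting marker, was at 11.83 ± 0.25 in untreated CCNB1-negative, 13.92 ± 0.19 in untreated CCNB1-positive, 7.57 ± 0.49 in treated CCNB1-negative and 12.65 ± 0.16 in treated CCNB1-positive cells (mean log2 value ± SD, n = 2). In bulk samples like these, fewer expressing cells and less RNA per cell cannot be told apart.

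**Figure D1:**
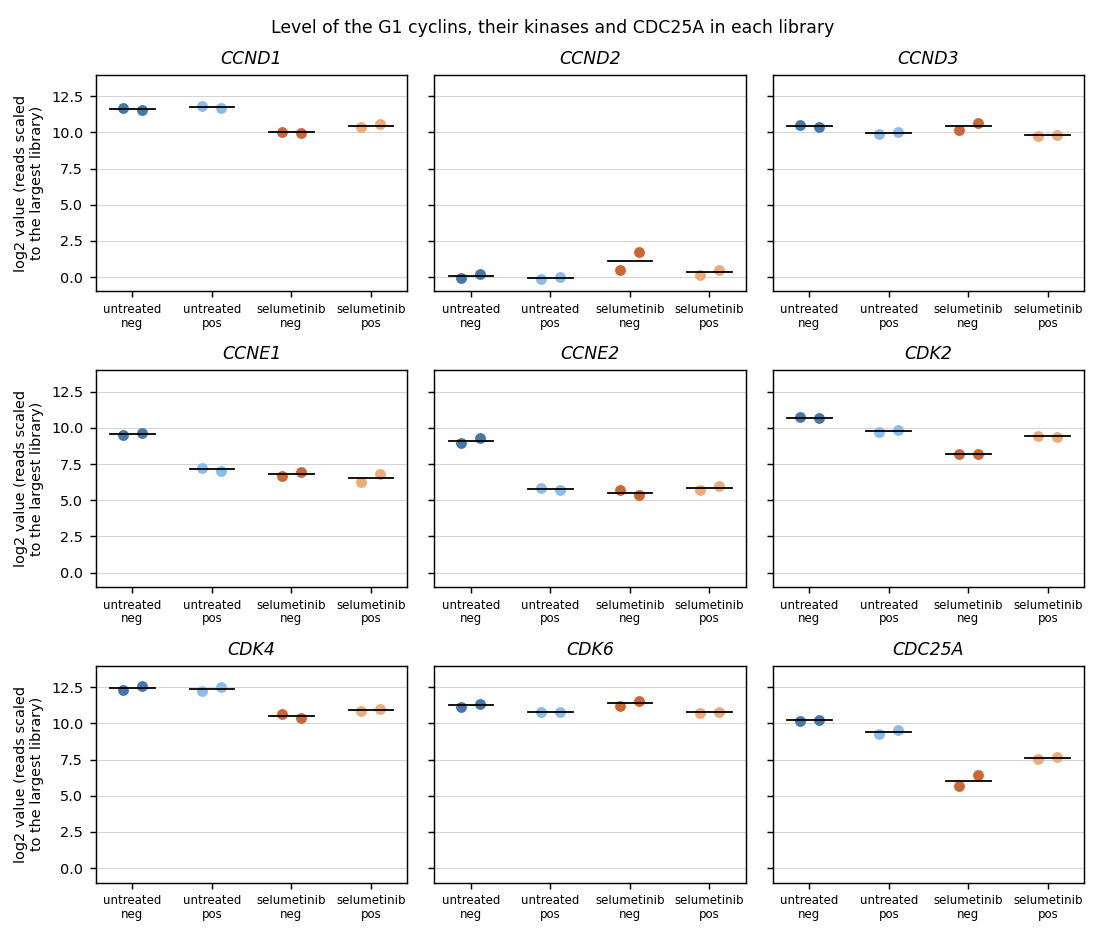
Log2 value of each gene (y axis, reads scaled to the largest library) in the 4 groups (x axis, neg for CCNB1-negative and pos for CCNB1-positive). Points are libraries and bars the mean of 2. CCNE1 and CCNE2 are high in untreated CCNB1-negative cells and low in the other 3 groups, CDC25A is lowest in treated CCNB1-negative cells, and CCND3 and CDK6 stay between 9.75 and 11.57 throughout.

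With selumetinib, 6 of the 8 genes tested were lower in CCNB1-negative cells and 5 of 8 in CCNB1-positive cells, the latter count being 3 without treated CCNB1-positive library 1 or either untreated CCNB1-positive library. CDC25A, CCND1 and CDK4 fell in both fractions, whereas CCNE1, CCNE2 and CDK2 fell steeply in CCNB1-negative cells and little or not detectably in CCNB1-positive cells. CCND3 and CDK6 passed the test in neither fraction. The test was limma on the log2 values with Benjamini-Hochberg adjustment over the 14219 genes whose mean log2 value stood for 1 RPM or more. A gene was called at an adjusted p under 0.05. In CCNB1-negative cells 74.1% of all genes tested were called, 38.2% higher and 35.8% lower. In CCNB1-positive cells 65.3% were called, 38.0% higher and 27.3% lower. No member was called higher in either fraction, nor was any higher at an unadjusted p under 0.05 (0 of 8) or with limma-voom on the recovered reads (0 of 8). The median change of the 8 members was -2.22 in the negative and -0.50 in the positive fraction, beside 0.05 and 0.17 over all genes tested.

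Among the D cyclins, CCND1 (ENSG00000110092, chr11:69641087-69654474, plus strand, GRCh38), the D cyclin most closely tied to ERK signalling, measured 11.66 and 11.55 in untreated and 10.05 and 9.96 in treated CCNB1-negative cells. In CCNB1-positive cells it measured 11.83 and 11.69 without and 10.36 and 10.58 with selumetinib. All treated libraries lay below all untreated ones. CCND1 fell 3.04-fold in CCNB1-negative cells (log2 change -1.60, SE 0.14, adjusted p = 3.0e-07, limma) and 2.45-fold in CCNB1-positive cells (-1.29, SE 0.14, adjusted p = 5.4e-06, limma). The difference of the responses was 0.31 (95% interval -0.13 to 0.75, adjusted p = 0.41, limma). On the opposite strand LTO1 overlaps CCND1 and held up to 864 reads in a library, and whether counting used strand was not given in the sources used here.

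CCND3 (ENSG00000112576, chr6:41934933-42050357, minus strand), a D cyclin that also pairs with CDK4 and CDK6, did not pass the test. It measured 10.51 and 10.39 in untreated and 10.18 and 10.67 in treated CCNB1-negative cells, and 9.89 and 10.02 against 9.75 and 9.83 in CCNB1-positive cells. The groups overlapped in the negative fraction. Its log2 change was -0.02 in CCNB1-negative cells (95% interval -0.39 to 0.34, adjusted p = 0.91, limma) and -0.17 in CCNB1-positive cells (95% interval -0.53 to 0.20, adjusted p = 0.40, limma). With median-of-ratios scaling, which shifted the median of all genes to -0.21 and -0.18, CCND3 was called lower in CCNB1-positive cells (-0.51, adjusted p = 0.020, limma).

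CCND2 (ENSG00000118971, chr12:4273762-4305353, plus strand), the third D cyclin, was below the limit of testing. It had 2 reads in the second treated CCNB1-negative library, 1 read in the first treated CCNB1-positive library and none in the other 6, which allows a level of up to 0.125 to 0.214 RPM in those 6 at a floor of 3 reads. AC008012.1, an overlapping gene that begins at the same base on the same strand, held 313 to 581 reads per library. How reads were divided between these genes was not given in the sources used here, so the level of CCND2 is uncertain.

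Of the D cyclin kinases, CDK4 (ENSG00000135446, chr12:57747727-57756013, minus strand) fell with selumetinib. It measured 12.30 and 12.56 in untreated and 10.64 and 10.38 in treated CCNB1-negative cells, and 12.25 and 12.50 against 10.87 and 10.97 in CCNB1-positive cells. No treated library reached an untreated one. The fall was 3.77-fold in CCNB1-negative cells (-1.92, SE 0.16, adjusted p = 1.5e-07, limma) and 2.74-fold in CCNB1-positive cells (-1.46, SE 0.16, adjusted p = 4.5e-06, limma), and the difference of 0.46 between the responses did not pass the test (95% interval -0.02 to 0.94, adjusted p = 0.27, limma). TSPAN31 and MARCHF9 lie on the opposite strand and overlap CDK4, with up to 495 and 442 reads.

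CDK6 (ENSG00000105810, chr7:92604921-92836594, minus strand), the other kinase of the D cyclins, did not pass the test. It measured 11.15 and 11.36 in untreated and 11.24 and 11.57 in treated CCNB1-negative cells, and 10.77 and 10.76 against 10.73 and 10.81 in CCNB1-positive cells. Treated and untreated libraries overlapped in both fractions. The log2 changes were 0.15 (95% interval -0.17 to 0.48, adjusted p = 0.37, limma) and 0.01 (95% interval -0.32 to 0.33, adjusted p = 0.98, limma). CDK6 was called higher in CCNB1-negative cells under quantile normalization (0.37, adjusted p = 0.039, limma) and with scaling that left out mitochondrial genes and MALAT1 (0.47, adjusted p = 0.013, limma), the latter shifting the median of all genes to 0.36.

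The E cyclins were high in 1 group alone. CCNE1 (ENSG00000105173, chr19:29811991-29824312, plus strand) measured 9.54 and 9.63 in untreated CCNB1-negative cells, and 6.65 and 6.93 in treated ones. In CCNB1-positive cells it was already low without selumetinib, at 7.26 and 7.05, and measured 6.26 and 6.81 with it. The untreated CCNB1-negative libraries stood alone above the other 6. CCNE1 fell 6.91-fold in CCNB1-negative cells (-2.79, SE 0.24, adjusted p = 1.8e-07, limma) and 1.54-fold in CCNB1-positive cells (-0.62, SE 0.24, adjusted p = 0.032, limma). The second call rested on single libraries: the adjusted p was 0.29 without treated CCNB1-positive library 1, where the change was -0.35, 0.14 without untreated CCNB1-positive library 1, and 0.051 without untreated CCNB1-positive library 2 (limma).

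CCNE2 (ENSG00000175305, minus strand of chromosome 8, 94879770 to 94896678), the second E cyclin, had the same form with fewer reads. It measured 8.94 and 9.32 in untreated CCNB1-negative cells, from 452 and 506 reads, and 5.69 and 5.35 in treated ones, from 33 and 24 reads. In CCNB1-positive cells it measured 5.83 and 5.69 without and 5.69 and 5.98 with selumetinib, from 40 to 57 reads. The 2 libraries of untreated CCNB1-negative cells were again alone above the rest, and the CCNB1-positive groups overlapped. CCNE2 fell 12.2-fold in CCNB1-negative cells (-3.61, SE 0.28, adjusted p = 7.8e-08, limma), with 0.08 in CCNB1-positive cells (95% interval -0.52 to 0.67, adjusted p = 0.82, limma). Under quantile normalization the latter value was -1.07 (adjusted p = 0.0060, limma). INTS8 and NDUFAF6 overlap CCNE2 on the opposite strand with up to 1279 and 959 reads, and whether its low values hold reads of these neighbours was not tested.

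CDK2 (ENSG00000123374, chr12:55966781-55972789, plus strand), the partner kinase of the E cyclins, measured 10.73 and 10.67 in untreated and 8.17 and 8.20 in treated CCNB1-negative cells. In CCNB1-positive cells it measured 9.72 and 9.87 without and 9.46 and 9.39 with selumetinib. Each group was tight, and no groups overlapped. The fall was 5.73-fold in CCNB1-negative cells (-2.52, SE 0.15, adjusted p = 7.9e-09, limma) and 1.29-fold in CCNB1-positive cells (-0.37, SE 0.15, adjusted p = 0.039, limma). Leaving out any one of 6 libraries ended the second call: the adjusted p rose to 0.092 and 0.17 without treated CCNB1-positive library 1 or 2, to 0.071 and 0.23 without untreated CCNB1-positive library 1 or 2, and to 0.059 and 0.058 without untreated CCNB1-negative library 1 or 2 (limma). CCNE1 also lost this call with no filter on low values (adjusted p = 0.055) and with only the groups compared in the fit (adjusted p = 0.051, limma). CCNE1 and CDK2 both lost it with scaling that left out mitochondrial genes and MALAT1, at adjusted p = 0.19 and 0.49 (limma). PMEL overlaps CDK2 on the opposite strand with up to 56 reads in a library. CDK2 itself had 183 and 173 reads in treated CCNB1-negative cells, and whether these hold reads of PMEL was not tested.

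CDC25A (ENSG00000164045, chr3:48157146-48188402, minus strand), whose product activates cyclin-CDK complexes, had the largest fitted fall of the members in both fractions. It measured 10.20 and 10.24 in untreated and 5.69 and 6.41 in treated CCNB1-negative cells, the latter from 33 and 50 reads. In CCNB1-positive cells it measured 9.30 and 9.53 without and 7.54 and 7.69 with selumetinib. Treated libraries lay below untreated ones in both fractions, and the treated CCNB1-negative libraries below all others. CDC25A fell 18.0-fold in CCNB1-negative cells (-4.17, SE 0.22, adjusted p = 4.6e-09, limma) and 3.49-fold in CCNB1-positive cells (-1.80, SE 0.22, adjusted p = 1.3e-05, limma).

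**Figure D2:**
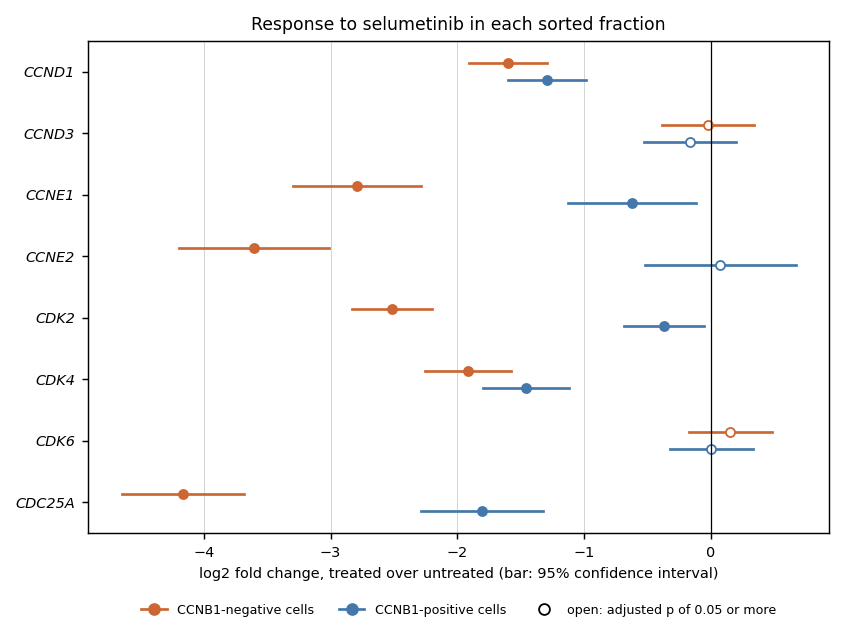
Log2 fold change of treated over untreated cells (x axis) for the 8 genes tested (y axis), in CCNB1-negative cells (orange) and CCNB1-positive cells (blue). Points are limma estimates from 2 libraries a group, bars 95% confidence intervals, and open points have an adjusted p of 0.05 or more. The interval bars of CCNE1, CCNE2, CDK2 and CDC25A in the 2 fractions do not meet, whereas those of CCND1, CCND3, CDK4 and CDK6 overlap.

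The difference of the responses between fractions, tested as an interaction term, was called for CCNE2, CDC25A, CCNE1 and CDK2, and the response of each was higher in CCNB1-positive cells. CDC25A, CCNE1 and CDK2 fell less there, and CCNE2 had no called change. Thus 4 of 8 members were called higher, beside 4.99% of all genes tested, with 0.345% called lower and 5.33% in either direction. The sizes were 3.68 for CCNE2 (SE 0.39, adjusted p = 3.0e-05), 2.36 for CDC25A (SE 0.32, adjusted p = 2.4e-04), 2.17 for CCNE1 (SE 0.33, adjusted p = 8.5e-04) and 2.15 for CDK2 (SE 0.21, adjusted p = 1.5e-05, all limma). They kept their call without any one library. None of the D cyclins or their kinases was called, at 0.46 for CDK4, 0.31 for CCND1, -0.14 for CCND3 (95% interval -0.66 to 0.37) and -0.15 for CDK6 (95% interval -0.61 to 0.31). No member was called lower by limma, at an unadjusted p under 0.05 (0 of 8) or by limma-voom (0 of 8). The E cyclins were already low in untreated CCNB1-positive cells, with 153 and 121 reads for CCNE1 and 57 and 47 for CCNE2.

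Without selumetinib, CCNB1-positive cells held less of both E cyclins and of CDK2 than CCNB1-negative cells. CCNE2 was 10.3-fold lower (log2 difference -3.37, SE 0.28, adjusted p = 7.8e-06, limma), CCNE1 5.38-fold lower (-2.43, SE 0.24, adjusted p = 2.7e-05, limma) and CDK2 1.87-fold lower (-0.90, SE 0.15, adjusted p = 0.0025, limma). Thus 3 of 8 members were called lower and none higher, beside 1.51% of all genes tested lower, 1.36% higher and 2.87% either way, and none of the 8 was higher at an unadjusted p under 0.05 or by limma-voom. CDC25A, at 10.20 and 10.24 against 9.30 and 9.53, differed by -0.80 (95% interval -1.28 to -0.32) with no overlap of the groups, but its adjusted p was 0.080 (limma). It was called by limma-voom (adjusted p = 0.0085), with only the groups compared in the fit (adjusted p = 0.023, limma) and without treated CCNB1-negative library 1 or 2 (adjusted p = 0.018 and 0.020, limma). The D cyclins and their kinases were not called, from -0.49 for CCND3 (adjusted p = 0.18) and CDK6 (adjusted p = 0.13) to -0.05 for CDK4 (adjusted p = 0.95) and 0.16 for CCND1 (adjusted p = 0.75, all limma). With a block of treatment and replicate number, CDC25A, CCND3 and CDK6 were called lower too (adjusted p = 0.0010, 0.0067 and 0.0030, limma), 6 members rather than 3. That block also called more of the 14219 genes tested, 1384 lower and 664 higher, against 214 and 194 in the main fit. The labels do not say that same-numbered fractions came from 1 culture.

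Under selumetinib CDC25A was 2.95-fold higher in CCNB1-positive than in CCNB1-negative cells (1.56, SE 0.22, adjusted p = 2.5e-04, limma), and CDK2 was 2.37-fold higher (1.24, SE 0.15, adjusted p = 3.8e-05, limma), although it had been lower there without the drug. CCND1 was 1.38-fold higher (0.47, SE 0.14, adjusted p = 0.033, limma), and CDK4 had a difference of 0.41 (adjusted p = 0.081, limma). CCND3 and CDK6 were both 1.55-fold lower in CCNB1-positive cells (-0.63 and -0.64, SE 0.17 and 0.15, adjusted p = 0.018 and 0.010, limma). The E cyclins did not separate the treated fractions, at -0.26 for CCNE1 (95% interval -0.77 to 0.25, adjusted p = 0.45, limma) and 0.32 for CCNE2 (95% interval -0.28 to 0.91, adjusted p = 0.43, limma), and their groups overlapped. In all, 3 of 8 members were called higher and 2 lower, beside 13.8% and 7.87% of all genes tested, or 21.6% either way.

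The smaller of these differences depended on single libraries or on the processing (limma unless named otherwise). The CCND3 call was lost without treated CCNB1-negative library 2 (-0.39, adjusted p = 0.17) or treated CCNB1-positive library 1 (-0.59, adjusted p = 0.11) or 2 (-0.67, adjusted p = 0.062). The CDK6 call was lost without the first 2 of these libraries (adjusted p = 0.092 and 0.084). CCND1 lost its call without treated CCNB1-negative library 2 (0.43, adjusted p = 0.14), treated CCNB1-positive library 1 (adjusted p = 0.070) or 2 (adjusted p = 0.22), or either untreated CCNB1-positive library (adjusted p = 0.051 each). It also lost it by limma-voom (adjusted p = 0.052), with no filter on low values (adjusted p = 0.064), with only the groups compared in the fit (adjusted p = 0.067) and with scaling that left out mitochondrial genes and MALAT1 (0.39, adjusted p = 0.076). CDK4 gained a call without treated CCNB1-negative library 1 (0.53, adjusted p = 0.038, limma). The calls of CDC25A and CDK2 were kept without any one library.

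**Figure D3:**
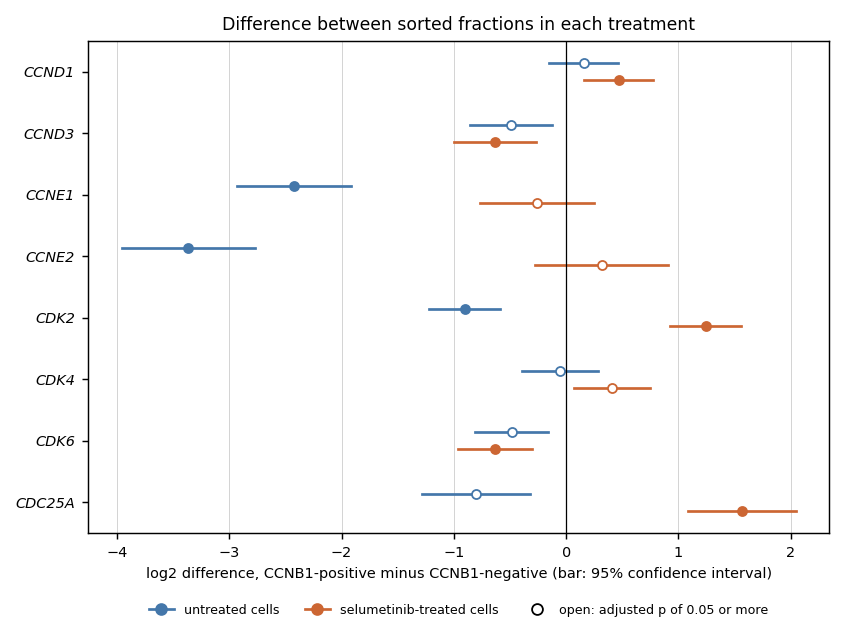
Log2 difference of CCNB1-positive minus CCNB1-negative cells (x axis) for the 8 genes tested (y axis), in untreated cells (blue) and selumetinib-treated cells (orange). Points are limma estimates from 2 libraries a group, bars 95% confidence intervals, and open points have an adjusted p of 0.05 or more. The interval bars of CDK2 and CDC25A lie below 0 in untreated and above 0 in treated cells, and those of CCND3 and CDK6 lie below 0 in both. In untreated cells the points of CDC25A, CCND3 and CDK6 are open. The estimates of CCNE2 and CDK4 also go from below to above 0, and CCNE1 is below 0 in both. Bars cross 0 for CCNE2 and CCNE1 in treated cells and for CDK4 in untreated cells.

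Markers of cycle phase also differed between the groups. The summed level of 8 G2 and M phase genes ran from 909 to 1035 RPM in untreated CCNB1-negative, 3970 to 4392 in untreated CCNB1-positive, 104 to 140 in treated CCNB1-negative and 3074 to 3195 RPM in treated CCNB1-positive cells. The sum of 6 genes that act at the start of S phase (MCM2, MCM3, MCM5, PCNA, CDT1 and CDC6) ran from 1393 to 1534, 688 to 699, 105 to 121 and 256 to 277 RPM in the same order. The latter list had the same order of groups as CDK2 and CDC25A: highest in untreated CCNB1-negative, then untreated CCNB1-positive, then treated CCNB1-positive and lowest in treated CCNB1-negative cells. The group means of CDK4 had this order too, though its untreated groups overlapped. Treated CCNB1-negative cells were lowest in both lists, and the part of a changed phase make-up in the values of the G1 cyclins was not tested.

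Levels of different genes were compared as RPM per kilobase of exon (RPKM), using the union of each gene's GENCODE 44 exons. CDK4 led in every group, at 74.6 ± 8.9 RPKM in untreated CCNB1-negative, 71.7 ± 8.2 in untreated CCNB1-positive, 21.8 ± 2.4 in treated CCNB1-negative and 28.0 ± 1.6 in treated CCNB1-positive cells (mean ± SD, n = 2). In untreated CCNB1-negative cells CCND1 followed at 27.4 RPKM, then CDK2 at 17.9, CCNE1 at 13.0, CDC25A at 12.0, CCND3 at 10.1, CDK6 at 8.35 and CCNE2 at 5.35, with no overlap between neighbours. CCND2 came last, with no read in the untreated groups.

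The order changed most with selumetinib in CCNB1-negative cells. CCND3 (11.1 ± 2.8 RPKM), CDK6 (10.3 ± 1.8) and CCND1 (9.92 ± 0.28) then lay together behind CDK4, and their libraries overlapped from one to the next. CDK2 followed at 3.44, CCNE1 at 2.08, CDC25A at 0.760 and CCNE2 at 0.483 RPKM. In CCNB1-positive cells CCND1 stayed second, at 30.4 RPKM without and 13.4 with the drug, ahead of CDK2 at 9.53 and 7.91. There CCND3 measured 7.18 and 6.88, CDK6 5.92 and 6.39, CDC25A 6.88 and 2.12, CCNE1 2.42 and 1.71 and CCNE2 0.514 and 0.584 RPKM without and with selumetinib. Libraries of CCND3 and CDC25A overlapped without it, and those of CDC25A and CCNE1 with it. With the length of the longest transcript in place of the union of exons, 26 of the 36 ranks were the same. In treated CCNB1-positive cells CCND3 (16.6 RPKM) then stood above CCND1 (15.1 RPKM).

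The make-up of each family moved with these levels. CCND1 gave 73.0 and 73.0% of the D cyclin reads per kilobase in untreated and 52.5 and 42.5% in treated CCNB1-negative libraries, and 82.3 and 79.4% against 64.9 and 67.1% in CCNB1-positive ones. CCND3 gave nearly all the rest. CDK4 gave 89.8 and 90.1% of the CDK4 and CDK6 sum in untreated and 72.3 and 63.5% in treated CCNB1-negative libraries, and 91.7 and 92.9% against 81.3 and 81.5% in CCNB1-positive ones. In both pairs the treated libraries lay below the untreated ones in each fraction, so that the less changed gene, CCND3 or CDK6, took a larger share. CCNE1 stayed the larger part of the E cyclins, at 68.9 to 84.3% in the 8 libraries. These shares depend on the exon length used: with the longest transcript CCND1 gave 55.8% of the D cyclins in untreated and 29.9% in treated CCNB1-negative cells (means of 2 libraries).

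**Figure D4:**
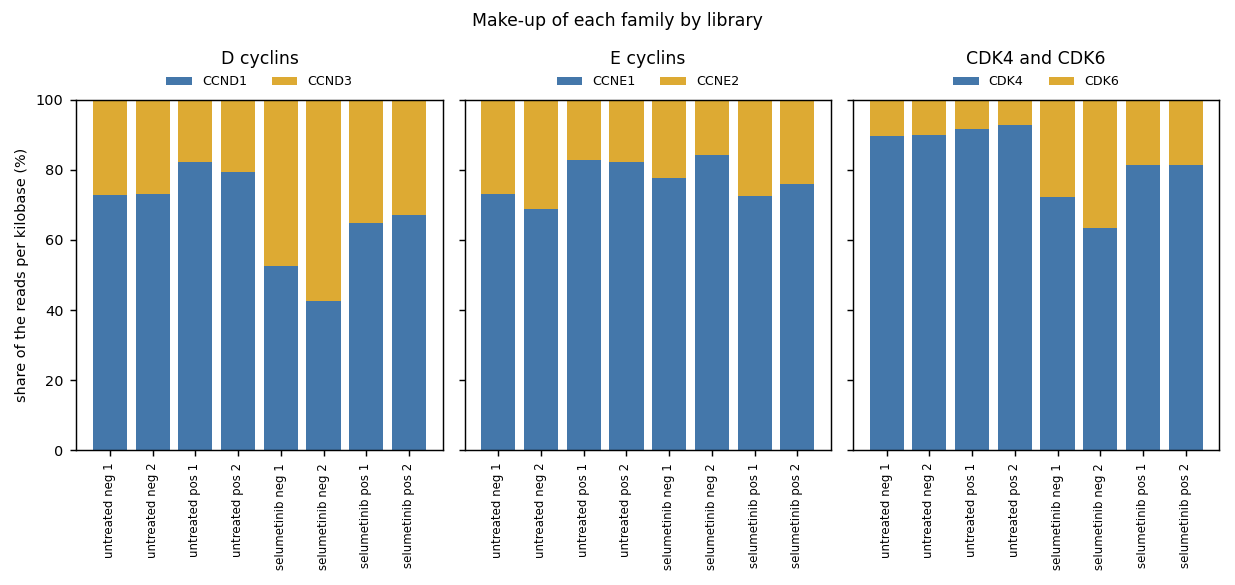
Share of the reads per kilobase (y axis, %) that each gene takes within its family in each of the 8 libraries (x axis), with exon unions as lengths. CCND2 is left out of the drawing because it took at most 0.0862% of the D cyclins. CCND1 and CDK4 take their smallest shares in the treated CCNB1-negative libraries, at 52.5 and 42.5% and at 72.3 and 63.5%.

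Other genes that act on the G1 cyclins and their kinases were counted by list, beside the 35.8% of all genes tested that were lower and 38.2% higher in CCNB1-negative cells and the 27.3% and 38.0% in CCNB1-positive cells. Of 14 ERK pathway output genes, which include CCND1, 12 fell and 2 rose in CCNB1-negative cells, and 12 fell and 1 rose in CCNB1-positive cells, with medians of -1.51 and -1.31. ETV4, an ETS factor induced by ERK, changed by -3.10 and -2.34, and EPHA4, an ephrin receptor, by 4.11 and 3.08 in the respective fractions. Of 8 tested genes with other inputs to D cyclin transcription (LEF1 was not tested), 5 rose and 1 fell in CCNB1-negative cells, and 4 rose and 2 fell in CCNB1-positive cells. MYC fell by 2.27 and 1.85, while TCF7L2, a nuclear effector of Wnt signalling, rose by 1.38 and 0.84 and the AP-1 subunit JUN by 0.66 and 1.30.

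Downstream of the G1 kinases, of 13 pocket protein, E2F and DP genes, 9 fell and 2 rose in CCNB1-negative cells. In CCNB1-positive cells 6 fell and 3 rose. Over all genes tested 35.8% were lower and 38.2% higher in the negative, and 27.3% and 38.0% in the positive fraction. The interaction term called 5 of the 13 higher, beside 4.99% of all genes tested. E2F1, an activator of S phase genes, changed by -3.65 and -0.50, and E2F7, a repressor of the same family, by -3.82 (adjusted p = 3.2e-07, limma) and -0.13 (adjusted p = 0.75, limma). RB1 itself was at -0.16 and 0.01 (adjusted p = 0.36 and 0.95, limma). The DP partner genes parted in both fractions: TFDP2 rose by 2.75 and 2.23, and TFDP1 fell by 2.14 and 1.48. Of 8 other cyclins, CDKs and their regulators, 7 fell in CCNB1-negative cells and 5 fell and 1 rose in CCNB1-positive cells. The interaction term called 7 of the 8 higher, beside the same 4.99%. This list holds CCNB1, the protein used for sorting, so its values are not independent of the gates.

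The CDK inhibitors took no common direction in CCNB1-negative cells. CDKN2B and CDKN1C rose and CDKN2C and CDKN2D fell there, whereas CDKN1A, CDKN2B and CDKN1C rose in CCNB1-positive cells and the other 3 inhibitors were not called there. CDKN1C, which encodes p57, rose by 2.73 and 3.68 in the respective fractions. CDKN2C, an inhibitor of CDK4 and CDK6 and itself an E2F target, fell by 2.63 in CCNB1-negative cells and was at 0.18 in CCNB1-positive cells (adjusted p = 0.59, limma). CDKN1A, encoding p21, was at 0.37 in CCNB1-negative cells (adjusted p = 0.51, limma) and rose by 1.66 in CCNB1-positive cells (adjusted p = 0.0090, limma). Of the 10 genes for turnover of G1 cyclins and CDK inhibitors, 5 fell and 3 rose in CCNB1-negative and 5 fell and 2 rose in CCNB1-positive cells, shares that stand beside the 35.8% lower and 38.2% higher, and the 27.3% and 38.0%, of all genes tested. CKS1B, a subunit that helps SKP2 recognise p27, fell by 3.60 and 1.09, CKS2 fell by 2.52 and 0.85 and BTRC, an F-box protein, rose by 1.81 and 0.97. Of the 3 CDK-activating kinase genes, MNAT1 rose by 1.26 and 0.70 and the cyclin gene CCNH fell by 0.83 and 0.60 in the respective fractions, while CDK7 was at -0.28 (adjusted p = 0.11, limma) and fell by 0.43 (adjusted p = 0.024, limma).

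**Figure D5:**
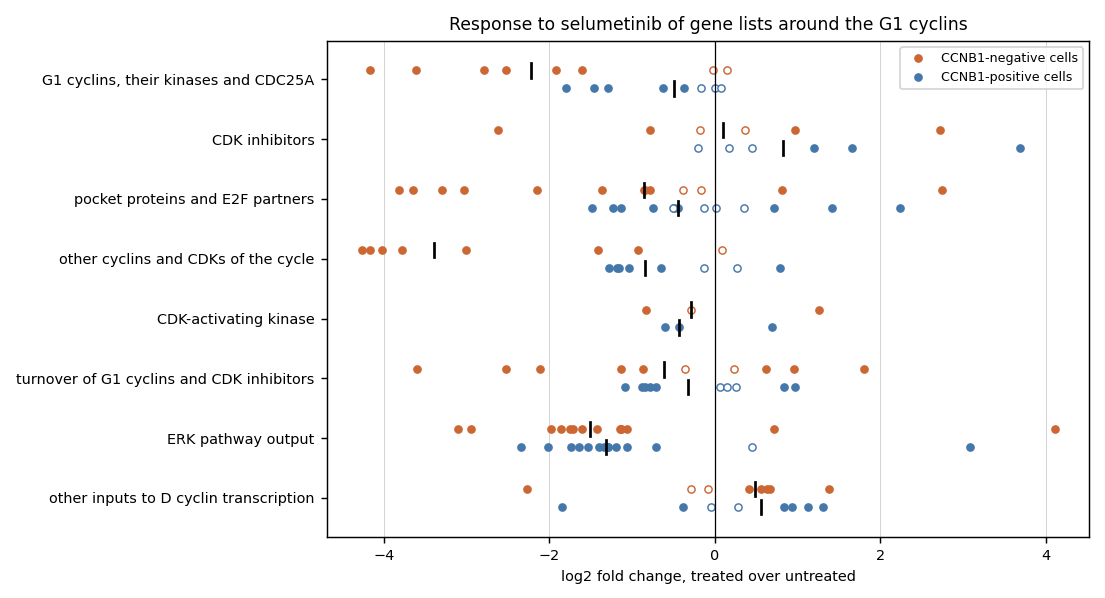
Log2 fold change of treated over untreated cells (x axis) for each tested gene of 8 lists (y axis), in CCNB1-negative (orange) and CCNB1-positive cells (blue). Black bars are list medians and open points have an adjusted p of 0.05 or more. The median of the G1 cyclins, their kinases and CDC25A is -2.22 in the negative and -0.50 in the positive fraction, and that of ERK pathway output is -1.51 and -1.31.

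The genes most like each member were ranked by Pearson's r of log2 values over the 8 libraries. Candidates were 9473 tested genes whose mean log2 value stood for 10 RPM or more. Clone and Ensembl identifiers, symbols that begin with LINC and symbols that end in a point and a number had been left out. The libraries share treatment, fraction and depth, so these values are descriptions. CCND1 was followed by NCLN, PMM2 and CCDC86 (r of 1.00, 0.998 and 0.998) and CDK4 by EIF3I, RPS2 and NPM1 (r of 1.00, 0.999 and 0.999), the latter a translation initiation factor subunit, a ribosomal protein and nucleophosmin. CDK2 was followed by ATAD2, RFC4 and POGLUT3 (0.992, 0.992 and 0.989), and LSM11 and CDC45 were among the genes nearest to CDC25A (0.996 each). RFC4 belongs to the clamp loader and CDC45 to the replicative helicase. CCNE1 was followed by CSTF3, ABHD5 and CCNT1 (0.984, 0.974 and 0.971) and CCNE2 by C19orf25, ARL14 and FAM111B (0.989, 0.983 and 0.978). Spearman's rho was lower for these genes, at 0.833, 0.929 and 0.786 with CCNE1 and 0.714, 0.643 and 0.548 with CCNE2. CCND3 was followed by ABI2, JPH1 and TNFRSF10B (0.963, 0.949 and 0.949), and CDK6 by JPH1, IKZF5 and SUCLG2 (0.963, 0.950 and 0.949). Among the members the closest pairs were CCND1 with CDK4 (0.978), CCNE1 with CCNE2 (0.969), CDK2 with CDC25A (0.960) and CCND3 with CDK6 (0.912).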

How the data were processed

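Poly(A) mRNA-seq libraries of HT29 cells, 2 for each of 4 groups, were analysed from 1 table. Per the submitters' processing notes, Trim Galore 0.5.0 and HISAT2 2.1.0 were used with GRCh38. The authors counted reads over genes with SeqMonk, and the deposited log2 values are relative to the largest library. The annotation release and strand handling were not given in the sources used here. Whole reads were recovered from all deposited log2 values (100%, tolerance 0.01 reads), and a gene without a read stands at log2 of 0.9 reads before scaling.

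Genes were tested if their mean log2 value over the 8 libraries stood for 1 RPM or more (14219 of 38148, 8 of the 9 members). The fit was limma 3.58.1 in R 4.3.3: 1 coefficient per group, all 8 libraries, eBayes with a trend, Benjamini-Hochberg adjustment, called at an adjusted p under 0.05. The steps were tested on simulated data. Lengths and overlaps came from GENCODE 44, whose identifiers matched 99.3% of the table's, and promoters from RefSeq (GRCh38.p14). Alternatives were limma-voom, other scalings, filters, pseudocounts and blocks, stricter calls and leaving out each library. Scaling without mitochondrial genes and MALAT1 and the longest transcript were chosen after seeing the data. Named genes were all members, CCNB1, the 3 genes most like each member (1 is not reported here), and the 2 with the largest change per list and response. RB1, CDK7, ETV5, DUSP6 and the CDK inhibitors beyond these were added after their values were seen. The members and lists were chosen with earlier results of these data known. Library depth was 12696860 to 23916160 reads, and read floors cover counting error only. No library pair agreed within sampling noise (chi-square per gene 17.3 to 33.5).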

Additional observations from a re-analysis of the deposited data

Results flagged for a closer look

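For 4 genes the response to selumetinib differed between the sorted fractions by the interaction term of limma, with Benjamini-Hochberg adjustment over all genes tested. The difference, the response in CCNB1-positive minus that in CCNB1-negative cells, was 3.68 for CCNE2 (adjusted p = 3.0e-05), 2.36 for CDC25A (adjusted p = 2.4e-04), 2.17 for CCNE1 (adjusted p = 8.5e-04) and 2.15 for CDK2 (adjusted p = 1.5e-05). Over leaving out each library in turn these values ran from 3.49 to 3.87, 2.01 to 2.72, 1.89 to 2.44 and 2.08 to 2.22. The summed level of the 6 genes that act at the start of S phase also differed between groups. In CCNB1-negative cells it was 1393 to 1534 RPM without and 105 to 121 RPM with selumetinib. In CCNB1-positive cells it was 688 to 699 and 256 to 277 RPM, where the CCNE2 response was 0.08 (adjusted p = 0.82, limma). The part of this sum in the 4 differences was not tested. Groups of 2 libraries are too small to look for single outlying libraries.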

How the results depend on the processing

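Direction and call of the 6 genes that fell in CCNB1-negative cells and of the 4 interaction terms were the same under every alternative that tested them. With a minimum of 10 RPM for the mean on the log2 scale, CCNE1 and CCNE2 were not tested. This left 1 member lower in untreated CCNB1-positive cells and 2 with an interaction. In CCNB1-negative cells 1 member, CDK6, was called higher with quantile normalization and with scaling without mitochondrial genes and MALAT1. In CCNB1-positive cells 3 rather than 5 members were called lower by limma-voom, with log2(RPM + 0.1), with that scaling, at an adjusted p under 0.01 and with a 2-fold minimum, and 3 to 5 when libraries were left out. CCNE1 and CDK2 were those lost, and CCNE1 alone was lost with no filter (adjusted p = 0.055, limma) and with only the groups compared (adjusted p = 0.051). Calls were also gained there, so that the count ran from 3 to 6 over all alternatives. CCND3 was called lower with median-of-ratios scaling (-0.51, adjusted p = 0.020, limma) and CCNE2 with quantile normalization (-1.07, adjusted p = 0.0060, limma). Between untreated fractions 3 to 4 members were lower when libraries were left out. CCND1 between treated fractions lost its call by limma-voom, with no filter, with only the groups compared and without mitochondrial genes and MALAT1 (adjusted p = 0.052 to 0.076). Between treated fractions the members called lower came to 0 with a threshold of 0.01 or a 2-fold minimum and to 0 to 2 (those called higher to 2 to 4) when libraries were left out, with 0 without treated CCNB1-negative library 2 or treated CCNB1-positive library 1.

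Values near 0 changed sign. For CCND3 the response in CCNB1-negative cells was 0.11 by limma-voom, 0.12 with log2(RPM + 0.1), 0.10 with quantile normalization, 0.29 without mitochondrial genes and MALAT1 and -0.27 to 0.22 when libraries were left out, and in CCNB1-positive cells 0.086 without those genes. With median-of-ratios scaling CDK6 stood at -0.10 in the negative and -0.34 in the positive fraction, CCNE2 at -0.27 in CCNB1-positive cells and CDK4 at 0.061 between untreated fractions. CCNE2 stood at -1.07 in CCNB1-positive cells with quantile normalization, where it was called lower. When libraries were left out, the ranges were -0.012 to 0.32 and -0.035 to 0.045 for the CDK6 responses, -0.066 to 0.22 for CCNE2 in CCNB1-positive cells, -0.18 to 0.078 for CDK4 between untreated and -0.53 to 0.014 for CCNE1 between treated fractions, and -0.39 to 0.10 and -0.31 to 0.017 for the interactions of CCND3 and CDK6. The cause was not tested.

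Over all genes tested, 5438 were higher and 5092 lower in the negative and 5400 and 3888 in the positive fraction, against 4580 and 6103 and 3923 and 5663 with median-of-ratios scaling, and 6588 and 3854 and 6676 and 2614 without mitochondrial genes and MALAT1. The median of all genes then moved from 0.05 and 0.17 to -0.21 and -0.18, or to 0.36 and 0.42.

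The labels do not say whether replicate numbers pair the libraries, and the main fit used no block. Deviations of same-numbered libraries correlated at 0.35 and 0.43 between fractions of 1 treatment and at -0.09 to 0.08 between treatments. The correlation within a block of treatment and number was 0.56. Whether same-numbered fractions of a treatment came from 1 culture was not tested. With the number as a replicate block, the single changed call was CDC25A between untreated fractions (adjusted p = 0.043, limma). A replicate block of treatment and number gave 6 rather than 3 members lower between untreated fractions, adding CDC25A, CCND3 and CDK6 (adjusted p = 0.0010, 0.0067 and 0.0030, limma), called CDK4 between treated fractions and by interaction (adjusted p = 0.0041 and 0.030), and lost CDK2 in CCNB1-positive cells (adjusted p = 0.051). By Spearman correlation 6 of the 24 likest genes were the same. With longest transcripts CCND1 gave 55.8, 66.4, 29.9 and 47.6% of the D cyclins and CDK4 93.4, 95.0, 76.9 and 87.4% of its pair (untreated negative and positive, treated negative and positive), and CCNE1 81.7% of the E cyclins in untreated CCNB1-positive cells. Depth limits CCND2 and the low values of CCNE2 and CDC25A.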
